A study of Caenorhabditis elegans with 2 samples.

Results

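The 5 genes described here encode histone acetyltransferases of Caenorhabditis elegans: cbp-1, pcaf-1, mys-1, mys-2 and mys-4, out of 19973 annotated protein-coding genes. They were taken by symbol from the Ensembl annotation of WBcel235, and all 5 symbols were found. The group was chosen with measured values in view: cbp-1 was picked on its high signal value in these same lists, so the contrast between cbp-1 and the other genes is given as a description, with no test. The data are chromatin immunoprecipitation sequencing (ChIP-seq) peaks of SAEG-2 from whole L4 larvae, aged 48 h and synchronised as starved L1 larvae after bleaching, in 2 biological replicates of 1 group. All larvae came from strain RW12230, in which CRISPR had inserted a TY1, EGFP and 3xFLAG tag at the saeg-2 gene itself, on III (allele st12230), and chromatin was recovered with an antibody against GFP. Both replicates derive from this single edited strain. They are whole animals, so the tissue in which a peak arises is unknown. The depth of the libraries is unknown, since the files are peak lists without read totals.

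Histone acetyltransferases transfer acetyl groups to lysines of histone tails, a mark of active promoters and enhancers. The families differ in structure and partners: CBP-1 is the worm homologue of the p300 and CBP coactivators and is required for cell differentiation in the worm embryo. PCAF-1 belongs to the GCN5 and PCAF family, and MYS-1, MYS-2 and MYS-4 to the MYST family, in which MYS-1 is the worm homologue of Tip60. Genetic studies place SAEG-2, a nuclear protein, with the histone deacetylase HDA-2, an enzyme of the opposite activity.

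Of the 5 genes, cbp-1 alone held a thresholded peak in its window, defined as the gene span plus 2 kb upstream. The authors' conservative list, made from both replicates, had 1 summit there, and so did the non-conservative list and the list of each replicate. The windows of pcaf-1, mys-1, mys-2 and mys-4 had none in any of these 4 lists. A count of 1 in 5 stands beside 5.31% of all protein-coding genes with a summit in the same kind of window in the conservative list, 6.1% in the non-conservative list, 2.39% in that of replicate 1 and 2.61% in that of replicate 2. The rule used these lists, so nothing is read from the comparison. Longer windows hold peaks more often: of the 1432 protein-coding genes with a window at least as long as that of cbp-1 (10.317 kb), 152 held a conservative summit (10.6%).

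The peak of cbp-1 lay upstream of the gene, in intergenic sequence. On ce11 (the same assembly as WBcel235) it covered chrIII:9765528-9765701, and its summit, III 9765644, was 865 bp upstream of the outermost annotated 5′ end of cbp-1 (III 9766509 to 9774825, plus strand, 4 annotated transcripts). It is shown whole because it is the only thresholded peak in the 5 windows. The sequence is the plus strand of the RefSeq copy of WBcel235, 174 bases, and the capitals run from the summit of replicate 2 to that of the conservative list, with the summit of replicate 1 between them.
cbp-1 peak: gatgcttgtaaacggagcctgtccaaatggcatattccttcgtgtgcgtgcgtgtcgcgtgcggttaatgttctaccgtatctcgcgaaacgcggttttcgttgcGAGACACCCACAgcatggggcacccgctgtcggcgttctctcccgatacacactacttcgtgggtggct

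The peak was placed alike by both replicates. Replicate 1 had its summit at III 9765642, 2 bp from that of the conservative list, and replicate 2 at III 9765633, 11 bp from it. The replicate summits were thus 9 bp apart. Over the 301 conservative peaks that overlapped a thresholded peak in both replicates, the distance between replicate summits had a median of 19 bp, with quartiles of 5 and 40 bp. The peak was narrow, 174 bp in the conservative list, 105 bp in replicate 1 and 111 bp in replicate 2, where most peaks had a fixed width of 304 bp in the conservative list and 280 bp in each replicate. Of the conservative peaks, 4.89% were as narrow or narrower, among them the 3 peaks most like it in level, described further on (155, 142 and 172 bp).

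Its deposited signal value (measure and scale unstated) was 148 in replicate 1, 203 in replicate 2 and 348 in the conservative list. Within its own list it ranked 21st of 452 in replicate 1, 10th of 541 in replicate 2 and 15th of 1145 in the conservative list. It therefore stood in the upper 4.65%, 1.85% and 1.31% of those lists. In the ranked lists behind them, described further on, it was 27th, 16th and 21st. Some stronger peaks are thus missing from the thresholded lists. Values from lists of different size are set side by side and not compared. The score follows the irreproducible discovery rate (IDR, low where the compared peak sets consistently rank a peak high). For the cbp-1 peak the score was 1000 in all 4 thresholded lists. That is the cap, which 771 of the 1145 conservative peaks reached.

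The site has more than 1 annotated gene beside it. The next coding gene upstream, gcc-2, lies on the minus strand with its 5′ end 3501 bp from the summit, and the next downstream of cbp-1, usp-46, starts 10979 bp away. Among all annotated genes, the noncoding RNA gene R10E11.10 (minus strand) has the closest 5′ end, 535 bp from the summit, so the summit is upstream of R10E11.10 as well as of cbp-1. R10E11.12, a noncoding RNA on the plus strand, ends 496 bp from it. The nearest tRNA gene on III was 95963 bp away. The nearest other conservative summits were 60192 bp away on the upstream side and 88260 bp on the downstream side. A control precipitation was not analysed here, so recruitment of SAEG-2 to this site cannot be told apart from general enrichment of accessible DNA.

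The sequence under the summit was richer in G and C than most. The bases within 50 bp of the cbp-1 summit held 56.4% G and C, against a median of 48.5% (quartiles 41.6 and 53.5) over the 1145 conservative peaks and 35.4% over the genome. All 144 words of 31 bases in the peak occur once in the genome, counting both strands, so the site is not repeated sequence at this word length. Of 8 short words of known factors, looked for on both strands of this window, 1 was present: GAGAG (a GA repeat), on the minus strand from III 9765670 to 9765674. It was also in 32.1% of all conservative windows of that length. TGATAA (intestinal GATA factors; 10.6% of all windows), GTAAACA (FOXO; 1.40%), GAANNTTC (heat shock element; 6.90%), CACGTG (E-box; 6.38%), TTTCAG (3′ splice site; 10.4%), TGACGTCA (CREB; 0.786%) and TGACTCA (AP-1; 0.961%) were not. None of these words contains another, and their absence says only that the letters are not there.

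**Figure D1:**
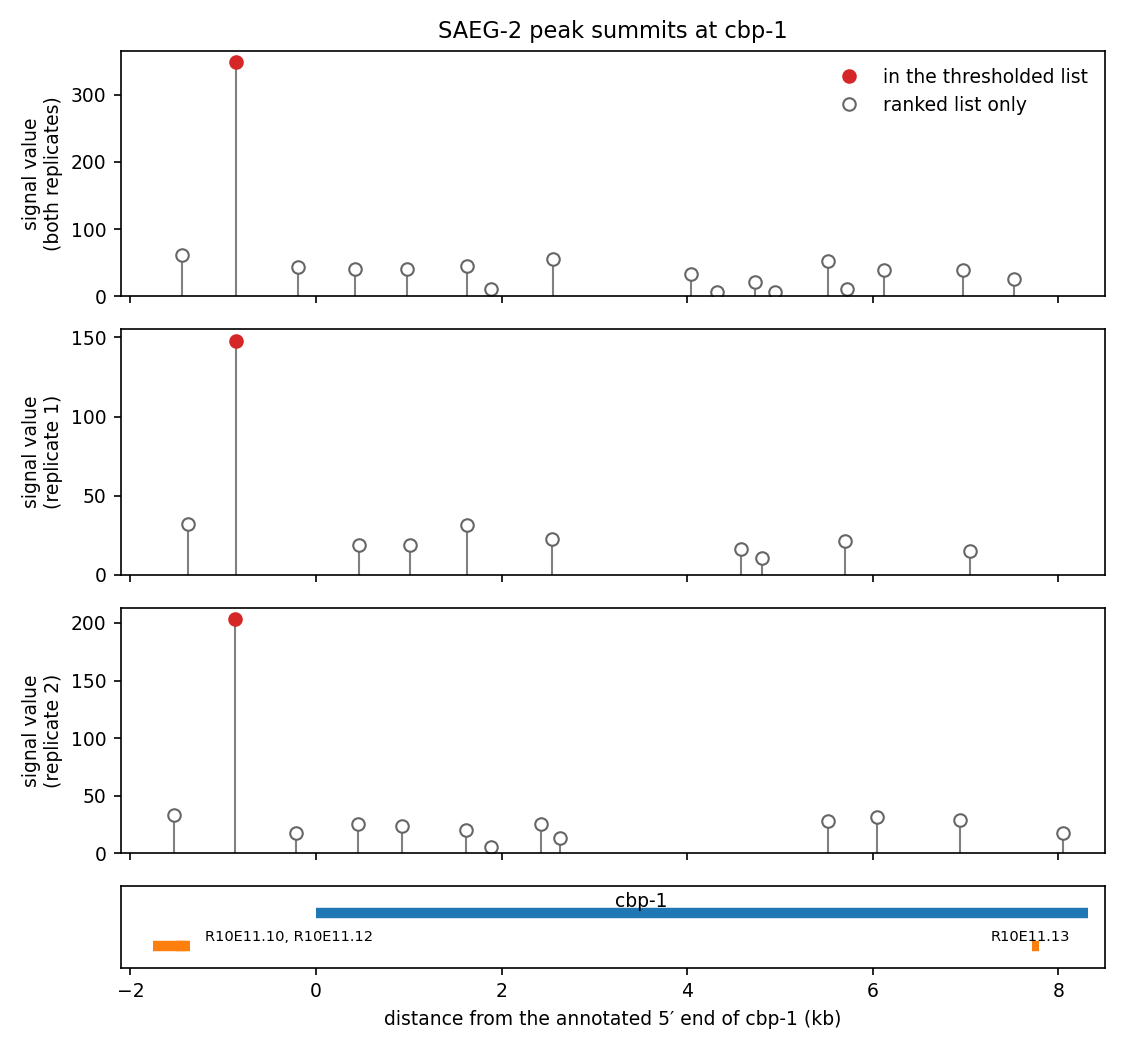
Summits in the cbp-1 window, by distance from the annotated 5′ end in kb (horizontal axis) and signal value (vertical axis), in the ranked lists of both replicates together, replicate 1 and replicate 2; filled points are also in the thresholded list, and the lowest panel shows cbp-1 and the noncoding RNA genes. The summit about 865 bp upstream stands at 348, 148 and 203, and every other summit in the 3 panels is at 61.4 or lower.

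The ranked lists also reach below the threshold and hold further candidate peaks, most of them weak. The ranked list behind the conservative list held 87308 peaks, and 17 had their summit in the cbp-1 window, or 1.65 per kb, against a median of 0.909 per kb over all protein-coding genes. The strongest of the 17 was the peak above, and its signal value was 5.67 times that of the next. The other 16 had signal values from 6.18 to 61.4 with a median of 38.9, and 12 of them had their summit in a coding exon of cbp-1. The second strongest (III 9764909 to 9765212, signal value 61.4) lay 1448 bp upstream of cbp-1, on exons of R10E11.10 and R10E11.12. With a score of 650, an IDR of 0.0271, it came nearest to the threshold of 0.01 among the 16, and it had a counterpart in the ranked list of both replicates. Its score was 228 in the ranked list behind the non-conservative list. There the candidate at III 9771871 to 9772174, in a coding exon 5514 bp into cbp-1 (signal value 53.1), had the higher score, 482.

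Overlap with ranked peaks of the replicates was not limited to the strongest peak. Of the 17 candidates of cbp-1, 10 overlapped a ranked peak in both replicates (58.8%), against 27.9% of all 87308. Some of the 10 shared a replicate peak, so they are not all separate sites, and all but the strongest missed the IDR threshold. The counts for the other genes were 4 of 10 at pcaf-1, 2 of 6 at mys-1 and 3 of 12 at mys-2. These ranked lists reach into weak peaks, and an overlap with them is a loose criterion. The joint list was made from the alignments of both replicates, so such an overlap is not independent support. The 17 candidates of cbp-1 also had a higher median signal value (38.9) than the whole list (25.9), so their share and that of all peaks are not like for like.

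The GCN5 family gene pcaf-1 (I 3516450 to 3523418, plus strand) had 10 candidates in its window, 1.11 per kb. The highest had a signal value of 38.7 and its summit in the 5′ UTR, 28 bp into the gene. It ranked 18188th of the 87308 and had a score of 109, an IDR of 0.545. In replicate 1 the highest candidate of pcaf-1 lay elsewhere, in a coding exon 5131 bp into the gene, at 23.3. In replicate 2 it lay 1937 bp upstream, at 18.7, which is below the median of that ranked list. Among all protein-coding genes, 53.3% had a highest signal value at least that of pcaf-1 in the joint ranked list. The nearest conservative summit was 156347 bp from its 5′ end.

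The Tip60 homologue mys-1 (V 7081545 to 7084662, minus strand) had 6 candidates, 1.17 per kb. The highest, V 7084584 to 7084887, lay 74 bp upstream of the 5′ end with a signal value of 31.1 and a score of 31, the lowest score in that list. It overlapped ranked peaks of replicate 2 but none of replicate 1. In replicate 1 the highest signal value was 25.1, at a summit in an intron 2018 bp into the gene, and in replicate 2 it was 26.1, in an intron 2268 bp in. At least this high in the joint list were 71.5% of all protein-coding genes. For its highest value in each replicate's ranked list the share was lower, 31.8% in replicate 1 and 39.6% in replicate 2. A lincRNA gene, linc-117, lies within the upstream part of the window, and 2 of the 6 candidates lay on its exon. The nearest conservative summit was 9266 bp from the 5′ end.

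The MYST gene mys-2 (I 14118751 to 14127202, plus strand) came closest to cbp-1 among the others, though far below it. It had 12 candidates, 1.15 per kb. The highest, I 14123093 to 14123396, had a signal value of 51.4 and its summit in an intron 4494 bp into the gene, with a score of 277, an IDR of 0.215. Its score was 417 in the ranked list behind the non-conservative list, an IDR of 0.0987. In replicate 1 the same place gave the highest value, 26.5 at a summit 4507 bp into the gene. In replicate 2 it gave 22.8, second to a candidate of 26.2 in a coding exon of fld-1, the neighbouring coding gene upstream. At least as high in the joint list were 24.2% of all protein-coding genes. The nearest conservative summit was 350621 bp away.

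The MYST gene mys-4 (I 8333082 to 8336727, plus strand) had no candidate in any of the 4 ranked lists. Its window is 5.646 kb long. Of the 4968 protein-coding genes with a window at least that long, 279 had no summit in the joint ranked list (5.62%), 343 had none in that of replicate 1 (6.90%) and 326 had none in that of replicate 2 (6.56%). The gap reached beyond mys-4. In the joint list it ran 15578 bp from one summit to the next, in replicate 1 16070 bp and in replicate 2 22271 bp, where the median gap was 699, 1421 and 1117 bp. Gaps this long or longer made up 0.474%, 0.911% and 0.306% of the gaps in those lists, by number and not by length of sequence. The gap was looked at because the window was empty, so it had to be at least 5.646 kb long. Nothing is read from its place among all gaps. The gap of the joint list holds mys-4, C34B7.1 and figo-1 and takes in part of cyp-36A1. All 15549 words of 31 bases in it occur once in the genome, and in the other windows this share was 99.5% at cbp-1, 90.7% at pcaf-1, 99.9% at mys-1 and 89.5% at mys-2. G and C made up 33.0% of the gap, 42.3% of the cbp-1 window, 31.3% of that of pcaf-1, 32.0% of that of mys-1 and 33.6% of that of mys-2. The part of sequence composition and of unique sequence in the empty window was not tested. The nearest conservative summit to the 5′ end of mys-4 was 30899 bp away.

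**Figure D2:**
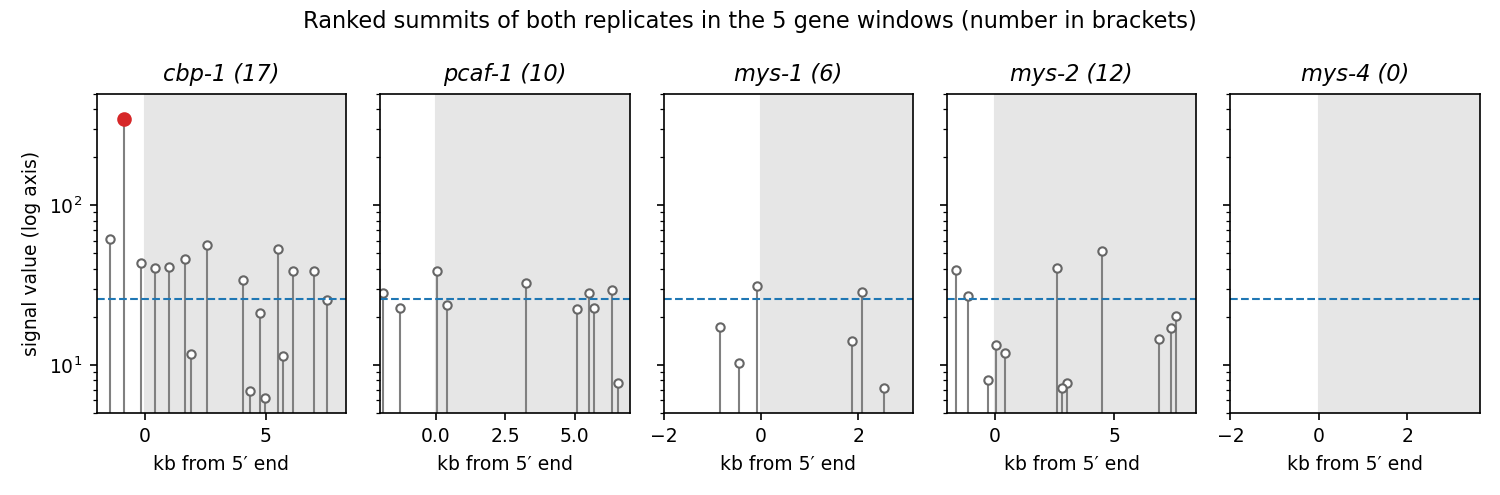
Every summit of the ranked list of both replicates in the windows of the 5 genes, by distance from the 5′ end in kb (horizontal axes) and signal value (vertical log axis); grey marks the gene span, the dashed line the median of the list (25.9), and the filled point is in the conservative list. The cbp-1 peak at 348 stands above all others, whose highest values are 61.4 at cbp-1 itself and 51.4 at mys-2, and the mys-4 window is empty.

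The order of the genes by the highest value in the window was the same in both replicates, but for mys-2 and mys-1 it was narrow. By the highest ranked signal value, cbp-1 was first in both, at 148 in replicate 1 and 203 in replicate 2. The highest values of mys-2 were 26.5 and 26.2, of mys-1 25.1 and 26.1, and of pcaf-1 23.3 and 18.7, in the same order of replicates. Since cbp-1 was picked on its high value in these lists, nothing is read from its step above mys-2. The values of mys-2 and mys-1 were nearest to each other in replicate 2. There the 26.2 of mys-2 was a summit in a coding exon of fld-1, the neighbouring gene upstream. The highest summit inside mys-2 was 22.8 in replicate 2, below that of mys-1, so the order of mys-2 and mys-1 depends on the upstream part of the window. In both replicates pcaf-1 was the lowest gene with a candidate. The replicate lists differ in size, so no spread between replicates is taken from them. In the joint list pcaf-1 (38.7) stood above mys-1 (31.1). The second candidate of cbp-1, at 32.1 in replicate 1 and 33.0 in replicate 2, was above the highest of every other gene in both. The highest site of pcaf-1 and mys-2 was in different places in the replicates. At mys-1 it was in introns, at separate summits of overlapping peaks, and that of cbp-1 moved by 9 bp. The cbp-1 site is a thresholded peak and the others are weak candidates, so nothing is read from this contrast. The second candidate of cbp-1 lay 1381 bp upstream in replicate 1 and 1531 bp upstream in replicate 2.

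**Figure D3:**
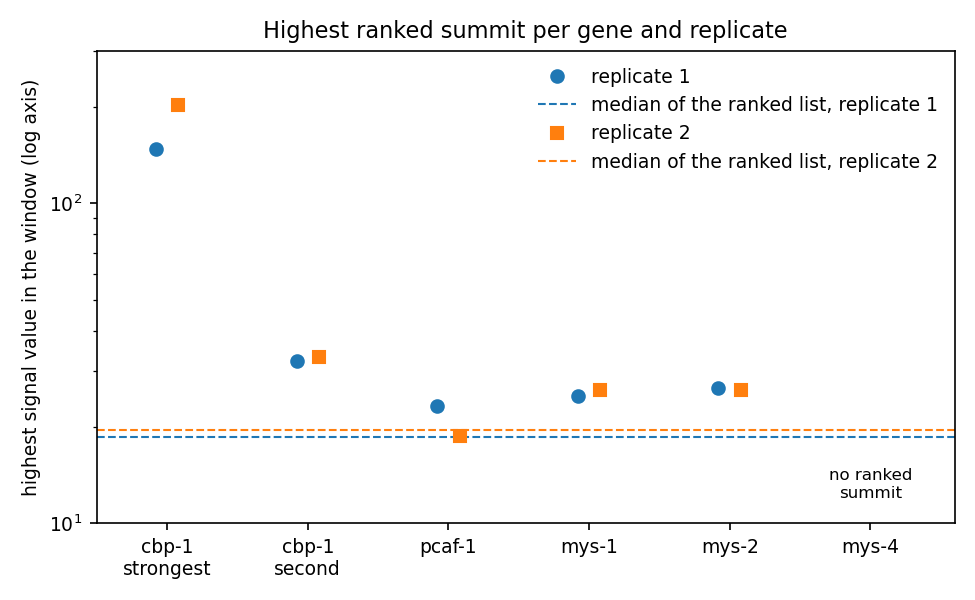
Highest signal value in the window of each gene (vertical log axis) in the ranked lists of replicate 1 (circles) and replicate 2 (squares), with the second highest of cbp-1 beside its highest; dashed lines are the medians of the lists, 18.6 and 19.5. The cbp-1 peak is at 148 and 203, the second of cbp-1 is at 32.1 and 33.0, pcaf-1, mys-1 and mys-2 lie between 18.7 and 26.5, and mys-4 has no summit. The mys-2 value of replicate 2 is a summit in a coding exon of the upstream gene fld-1.

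By its level in the 2 replicates, the cbp-1 peak was most like 3 other peaks. Likeness was the distance in log2 signal value over both replicate lists, among 313 protein-coding genes whose strongest conservative peak was thresholded in both. Peaks were taken until at least 5 genes were named, so the number 3 marks no break in level. Another peak thresholded in both replicates, at 162 and 189, was about as near as the last of them. The first peak (distance 0.05) lies in the windows of Y17G9B.5, cyc-2.1 and rpl-20, with 144 in replicate 1 and 208 in replicate 2. It is 165 bp upstream of Y17G9B.5, 297 bp upstream of rpl-20, a ribosomal protein gene, and 1063 bp upstream of cyc-2.1, a cytochrome c gene. The second (distance 0.07) was an intronic peak 5682 bp into the peroxidasin gene pxn-1, with 155 and 207. The last (distance 0.16) was shared by K11H12.1, K11H12.8 and rpl-15, another ribosomal protein gene, with 158 and 185. Like that of cbp-1, the first and last of these were intergenic and upstream of coding genes. Their 41 bases around the conservative summit (its base in capitals, plus strand) are shown beside those of cbp-1 and of the mys-1 candidate, which did not reach the threshold.
cbp-1 (chrIII:9765624-9765664): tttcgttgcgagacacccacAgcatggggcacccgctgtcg
Y17G9B.5, rpl-20 and cyc-2.1 (chrIV:4750055-4750095): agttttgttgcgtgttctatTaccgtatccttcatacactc
pxn-1 (chrV:8500551-8500591): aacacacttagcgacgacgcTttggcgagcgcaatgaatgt
K11H12.1, K11H12.8 and rpl-15 (chrIV:654891-654931): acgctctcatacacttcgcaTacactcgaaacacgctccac
mys-1 candidate (chrV:7084716-7084756): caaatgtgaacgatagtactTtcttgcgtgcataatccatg

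**Figure D4:**
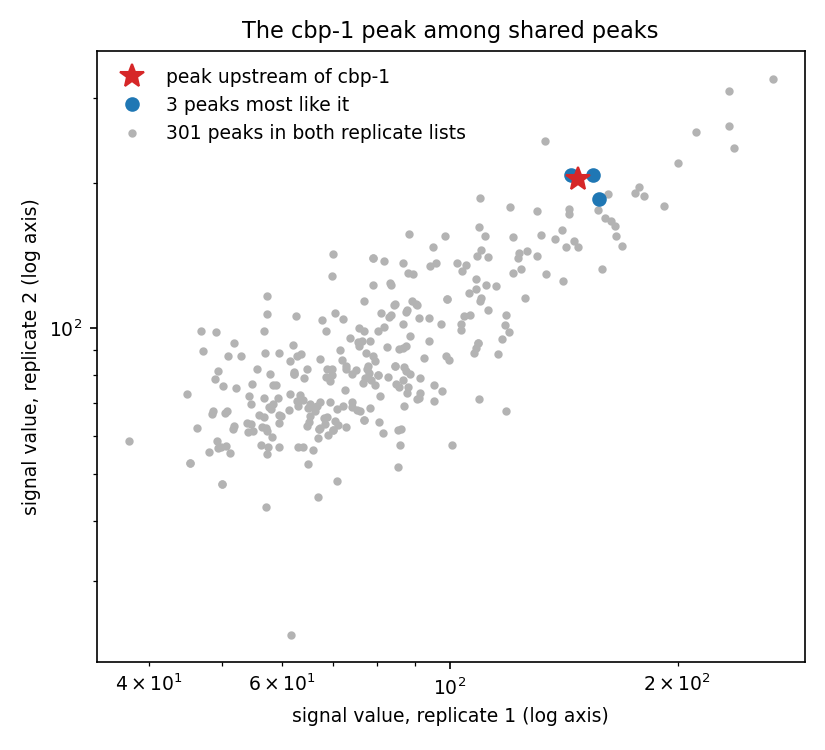
Signal values in the lists of replicate 1 (horizontal log axis) and replicate 2 (vertical log axis) of the 301 conservative peaks thresholded in both, with the cbp-1 peak as a star and the 3 peaks most like it as large points. The cbp-1 peak (148 and 203) lies toward the upper end of the cloud, beside peaks at 144 and 208, 155 and 207, and 158 and 185.

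Other genes of histone acetylation were read in the same way. Of 16 further acetyltransferases and subunits of their complexes, 2 held a conservative summit (12.5%, against 5.31% of all protein-coding genes), and the median gene of the list and of all coding genes had none. The first was hat-1, which encodes a type B histone acetyltransferase. Its peak lay 262 bp upstream, in an intron of M03C11.3, with a signal value of 77.0 in replicate 1, 114 in replicate 2 and 197 in the conservative list, where it ranked 94th. The second was ruvb-1, an ATPase of the Tip60 complex among others, with 2 conservative summits, the stronger upstream at 81.5, and none in either replicate's thresholded list. The non-conservative list added epc-1, a subunit of the Tip60 complex in other species. In this list hat-1 was thus the only gene with a peak thresholded in both replicates.

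None of 12 histone deacetylase and sirtuin genes held a summit in the 4 thresholded lists, where between 2.39% and 6.1% of all protein-coding genes did, so a count of 0 is near the background. A list of acetyl-lysine readers and partner proteins gave 10 genes that were found. In the conservative list 4 of them held a summit (40%, against 5.31% of all protein-coding genes). In the non-conservative list 3 did (30%, against 6.1%). The list was chosen with earlier results known and not all its members are readers, so these are not shares of readers alone. The 4 were swsn-7 (signal value 143; a SWI/SNF subunit), pbrm-1 (123; polybromo), bet-2 (116; a BET bromodomain protein) and nurf-1 (80.9; a subunit of the NURF remodeller). Of these, pbrm-1 (49.4 in replicate 1, 56.7 in replicate 2) and bet-2 (63.9 and 56.7) were thresholded in both replicates, and the peak of swsn-7 in replicate 2 (96.9) but not in replicate 1. The peak of nurf-1 is the one missing from the non-conservative list, and it overlapped no thresholded peak of either replicate, though replicate 2 had a summit elsewhere in the gene's window. That window is longer than the one of cbp-1, and among coding genes with windows at least as long as that of cbp-1, 10.6% held a conservative summit. The peak of bet-2 lay 631 bp upstream and those of pbrm-1 and nurf-1 inside the gene. That of swsn-7 lay 673 bp upstream, on a noncoding exon of C08B11.11. The lists are short, and 1 gene moves their shares by 6.25 to 10 percentage points.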

How the data were processed

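Peak lists on ce11 were used as deposited. As the deposited file list records, 4 lists (conservative, non-conservative and 2 ranked) were made from alignments of replicates 1 and 2 together, and those of a replicate from its alignments alone; each also names a further file of unstated kind. Aligner and peak caller were not given in the sources used here. Values used were the deposited score (capped at 1000), signal value, summit offset and, in the ranked lists, −log10 IDR (capped at 5). The 32 columns that hold values of the compared peak sets (8 in each of 4 ranked lists) were left out. Thresholded lists hold an IDR of at most 0.01, though 58 ranked peaks that pass it are not in the conservative list.

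Summits were assigned to gene windows of Ensembl release 115 (WBcel235); sequence came from the RefSeq copy. Window counting was tested on planted peaks. Python 3.11.15 with pandas 2.3.3 was used. No test was run, since members and lists were chosen with earlier results of these data known. Named were the 5 genes, genes at their conservative peak, acetylation genes with a conservative summit, and the genes most like cbp-1 (at least 5, with all that share a peak). In all, 8 alternatives were tried. The uniqueness check, the gap around mys-4 and the shared words were added after seeing the data.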

Additional observations from a re-analysis of the deposited data

How the results depend on the processing

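The count of 1 gene with a peak, and of 1 peak at cbp-1, was the same under 7 of 8 alternatives: either replicate's list alone, the non-conservative list, the stronger part by signal value, an overlap of at least 1 bp, 1 kb upstream, and each summit given only to the protein-coding gene with the nearest 5′ end (noncoding genes, of which R10E11.10 is closer, left aside). With the gene span alone both counts were 0, because the peak lies upstream. Leaving out a replicate gave a signal value of 147.8 to 203.3 at cbp-1 in place of 347.7, and a place in the upper 1.848 to 4.646% of the list in place of 1.31%. The share of protein-coding genes with a peak, 5.312% in the conservative list, was 2.393 to 2.614% when a replicate was left out. It was 6.098% in the non-conservative list and 2.929% at or above the median signal value. It was 5.658% with an overlap of at least 1 bp, 4.221% with 1 kb upstream, 1.888% with the gene span alone and 4.706% with the nearest protein-coding gene alone. With depth unknown, no limit can be given for sites too weak to enter even the ranked lists, which bears on the empty mys-4 window. No paired analysis was possible because the samples form 1 group.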

Other observations

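Words of 6 bases shared by the windows of 50 bp on each side of the summit at cbp-1 and at the 3 peaks most like it were looked for after their sequences had been seen. None was in all 4 windows. ACCGTA was in 3 (at cbp-1, at the peak of Y17G9B.5, rpl-20 and cyc-2.1, and at that of K11H12.1, K11H12.8 and rpl-15), in 5.33% of conservative windows and in 2.31% of 2290 flanking windows of the same length that began 200 bp from the summits. ATACAC was in the same 3, in 5.15% of conservative and 3.49% of flanking windows. ACACAC was at cbp-1, pxn-1 and the rpl-15 peak, in 11.3% of conservative and 5.94% of flanking windows. The longest word that cbp-1 shared with any of them was TACCGTATC, of 9 bases, at the peak of Y17G9B.5, rpl-20 and cyc-2.1. It was in 3 of the 1145 conservative windows and in 5 of the flanking windows. No test was run, and words chosen in this way favour shared ones.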
